A study of Mus musculus with 2 samples.

Results

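The transcripts described here are 6 of the 32285 genes in a single-cell count table of mouse microglia: the nuclear long noncoding RNAs (lncRNAs) *Malat1*, *Neat1* and *Kcnq1ot1*, and the transcripts *Gm42418*, *Gm26917* and *Lars2*, which share a reputation for carrying ribosomal RNA-like reads. They were chosen from earlier results on these cells for how their share of counts moved with the total counts of a cell, its share of mitochondrially encoded (mt-) counts and the library, so each of those relations is a description here and none is tested. Microglia were sorted as CD45lo CD11b+ DAPI- cells from cortex and hippocampus of PSAPP mice, which carry the APPswe and PS1ΔE9 transgenes of human amyloid precursor protein and presenilin and deposit amyloid plaques. In both groups 5 mice were pooled into 1 library. The LEM mice were gavaged daily with lemborexant, an antagonist of both orexin receptors, at 30 mg/kg/day from 9 to 10 months of age, and the VEH mice with vehicle over the same 30 days. With 1 pooled library a group, the mice within a pool cannot be told apart, a difference between the libraries has no replicate check, and every interval below covers counting error only, at 95%.

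*Malat1* lies in nuclear speckles, the compartments where splicing factors gather, and *Neat1* is the scaffold of paraspeckles. *Kcnq1ot1* is transcribed antisense within the *Kcnq1* gene and silences the neighbouring imprinted genes of the same chromosome copy. Ribosomal RNA is made in the nucleolus and carries no long poly(A) tail, while *Lars2* encodes the mitochondrial leucyl-tRNA synthetase and is an ordinary messenger RNA by its annotation.

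The annotation (GENCODE M21, on GRCm38, the assembly that mm10 names) placed *Malat1* at chr19:5795690-5802672 and *Neat1* at chr19:5824708-5845478, both on the minus strand and both as a single exon in their longest transcripts. *Kcnq1ot1* covers chr7:143203458-143296549 on the minus strand, and *Lars2* covers chr9:123366927-123462666 on the plus strand with 21 exons in its longest transcript. *Gm26917* (chr17:39843013-39846341) and *Gm42418* (chr17:39846958-39848788) are neighbours on the plus strand. RefSeq (GRCm38.p6) lists *Gm42418* as a synonym of *Rn18s-rs5*, a pseudogene related to 18S ribosomal RNA at chr17:39846354-39848202. That record covers 1245 of the 1831 bases of *Gm42418* (68.0%), whereas *Gm26917* ends 12 bases before it starts. The last 60 bases of *Gm26917* (chr17:39846282-39846341) and 60 bases of *Gm42418* across the end of the *Rn18s-rs5* record (chr17:39848163-39848222) are shown, 5′ to 3′ on the plus strand, because they mark what separates these neighbours. Capitals are the bases inside the record.
Gm26917: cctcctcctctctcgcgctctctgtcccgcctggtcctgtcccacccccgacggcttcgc
Gm42418: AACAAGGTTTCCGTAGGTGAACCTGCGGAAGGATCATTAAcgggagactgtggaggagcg

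No run of 18 bases was shared between the spliced transcripts of *Gm42418*, *Gm26917* and *Lars2* on either strand. Introns, from which reads can also be counted, were not searched. Nor were the transcripts compared with the sequence of ribosomal RNA or its precursor, so whether *Gm26917* or *Lars2* holds such sequence was not tested. *AY036118*, a lncRNA gene of 923 bases, lies wholly inside *Gm42418* on the opposite strand, and reads of that stretch can be assigned only by strand. The 5′ kit used here primes complementary DNA with oligo(dT), for which an internal stretch of A can stand in for a tail. The longest run of A was 12 bases in *Malat1*, 41 in *Kcnq1ot1* and 7 in *Neat1*. The runs of *Malat1* (chr19:5795976-5796011, minus strand) and *Kcnq1ot1* (chr7:143226933-143226997, minus strand) are shown in capitals with 12 bases on each side, 5′ to 3′, as the members that hold runs of 10 or more.
Malat1: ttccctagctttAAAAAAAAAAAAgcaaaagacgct
Kcnq1ot1: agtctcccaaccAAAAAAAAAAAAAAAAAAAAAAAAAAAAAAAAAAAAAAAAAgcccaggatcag

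Runs of at least 10 A were found once in *Malat1* and 10 times in the 93092 bases of *Kcnq1ot1*. *Neat1*, *Gm42418*, *Gm26917* and *Lars2* held none in their longest transcripts, where 9.74% of all 55341 annotated genes held at least 1.

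The VEH library held 18374 cells with 116229678 counts (unique molecular identifiers), and the LEM library 24392 cells with 160752298 counts. Median counts per cell were 5971 and 6034. The 6 members took 2.02% of all counts in VEH and 1.97% in LEM. All 10 homeostatic microglial markers tested (*P2ry12*, *Tmem119*, *Sall1* and others) were detected in at least 1% of cells of a library, while none of the neuronal, astrocyte, neutrophil or erythroid markers was. Of other cell types 7 BAM, 3 choroid plexus, 2 oligodendrocyte, 2 monocyte, 1 endothelial and 1 T or NK cell markers were. Cells with *Xist* or Y-linked counts alone were called female (5686 VEH and 8409 LEM) or male (9025 and 11223), the remaining 19.9% and 19.5% being called neither. Cell names in the table carry no barcode sequence, so barcodes shared between the libraries could not be counted, and 0 cells of one library had the same counts as a cell of the other.

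The levels of the members were close in LEM and VEH. None of the 6 was past a log2 ratio of 0.5 in size, a limit that 1.62% of 11910 genes passed upward and 1.24% downward, counting those found in 1% or more of the cells in VEH or LEM. None was past it in female cells (3.03% and 2.44% of genes) or in male cells (2.86% and 2.12%). Their median log2 ratio of LEM over VEH was -0.07, beside 0.01 over all genes tested, with 1 member higher and 5 lower. Levels are given as counts per 1000000 counts (CPM), and higher or lower is said only of the same gene between groups of cells. Fewer cells that hold a transcript and fewer copies per cell cannot be told apart in a summed level.

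Among the nuclear lncRNAs, *Neat1* had the largest difference. It stood at 158 CPM in VEH and 127 CPM in LEM, a log2 ratio of -0.31 (-0.34 to -0.28), which lay at percentile 3.06 of all genes tested. In cells called female it was 171 CPM in VEH and 129 in LEM, and in cells called male 148 and 126. LEM was thus the lower library in both sexes, with log2 ratios of -0.40 and -0.23. Counts of *Neat1* were found in 42.7% of VEH cells (Clopper-Pearson interval 41.96 to 43.4) and 40.1% of LEM cells (39.5 to 40.7), or in 22.5% and 19.4% of the cells of 2000 counts or more after each was thinned to 2000 counts. *Neat1* was lower in LEM in 15 of 16 clusters, in 6 of 6 ranges of total counts and in 5 of 5 ranges of mt- share, with intervals below 0 in 12, 5 and 5 of them. Clusters 3, 4 and 7 were mostly of VEH cells (3362 against 57 in cluster 4) and clusters 0, 1 and 2 mostly of LEM cells (4074 against 419 in cluster 2). The exception for *Neat1* was the BAM-like cluster of 182 cells (border-associated macrophages, the macrophages of the brain's coverings), at 0.20, where the interval (-0.20 to 0.62) held 0.

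*Malat1* stood at 8432 CPM in VEH and 8120.2 CPM in LEM, a log2 ratio of -0.05 (-0.06 to -0.05). It was lower in LEM in both sexes, at -0.06 in female and -0.04 in male cells, but over the clusters it was higher in 8 and lower in 8. Counts of *Malat1* were found in 99.4% of VEH and 99.2% of LEM cells, and in 99.5% and 99.2% after thinning.

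*Kcnq1ot1* was the member with a higher level in LEM, with 40.9 CPM in VEH and 43.2 CPM in LEM and a log2 ratio of 0.08 (0.02 to 0.13). Both sexes shared that direction, at 0.13 for female and 0.08 for male cells, and 9 of 16 clusters were higher in LEM. Counts of *Kcnq1ot1* were found in 18.03% of VEH and 20.1% of LEM cells, and in 7.30% and 7.60% after thinning.

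Of the 3 rRNA-like members, *Gm42418* differed least between the libraries, at 10511 CPM in VEH and 10409 CPM in LEM (log2 ratio -0.01, -0.02 to -0.01). That summed level hides differences of both signs. Over the 16 clusters *Gm42418* was higher in LEM in 7 and lower in 9, with log2 ratios from -0.26 to 0.29. The intervals lay above 0 in 7 clusters and below 0 in 8. Over the 6 ranges of total counts its ratio ran from -0.22 to 0.06. It was higher in LEM in cells called female (0.05) and lower in cells called male (-0.04), a difference that was not tested. Counts of *Gm42418* were found in 99.4% of VEH and 99.1% of LEM cells, and in 98.9% and 98.5% after thinning.

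*Lars2* stood at 902 CPM in VEH and 831 CPM in LEM (-0.12, -0.13 to -0.11). It was lower in LEM at -0.18 in female and -0.10 in male cells, and in 8 of 16 clusters. Counts of *Lars2* were found in 82.7% of VEH and 79.9% of LEM cells, or 58.5% and 54.6% after thinning. *Gm26917* stood at 137 CPM in VEH and 128 CPM in LEM (-0.09, -0.12 to -0.06), yet within clusters it was higher in LEM in 10 of 16. The summed level of *Gm26917* and the majority of its clusters therefore pointed to opposite libraries. Counts of it were found in 38.5% of VEH and 41.0% of LEM cells, or 18.2% and 18.5% after thinning.

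The members also differed little between the sexes within a library. None of the 6 was past the limit in VEH (3.13% of genes upward and 2.25% downward) or in LEM (2.13% and 1.91%). *Gm42418* was lower in female than in male cells in both libraries, the log2 ratio being -0.11 (VEH) and -0.03 (LEM). *Gm26917* was higher in female cells in both, at 0.21 and 0.08, as were *Malat1* (0.09 and 0.06) and *Kcnq1ot1* (0.12 and 0.16). *Neat1* was higher in female cells at 0.21 in VEH, and at 0.04 in LEM, where the interval (-0.0094 to 0.08) held 0. *Lars2* differed in sign, at 0.07 in VEH and -0.0096 in LEM, where the interval (-0.03 to 0.0080) held 0. The female call rests on a count of *Xist*, itself a nuclear lncRNA, and the male call on Y-linked genes. The part of that in these differences was not tested.

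**Figure D1:**
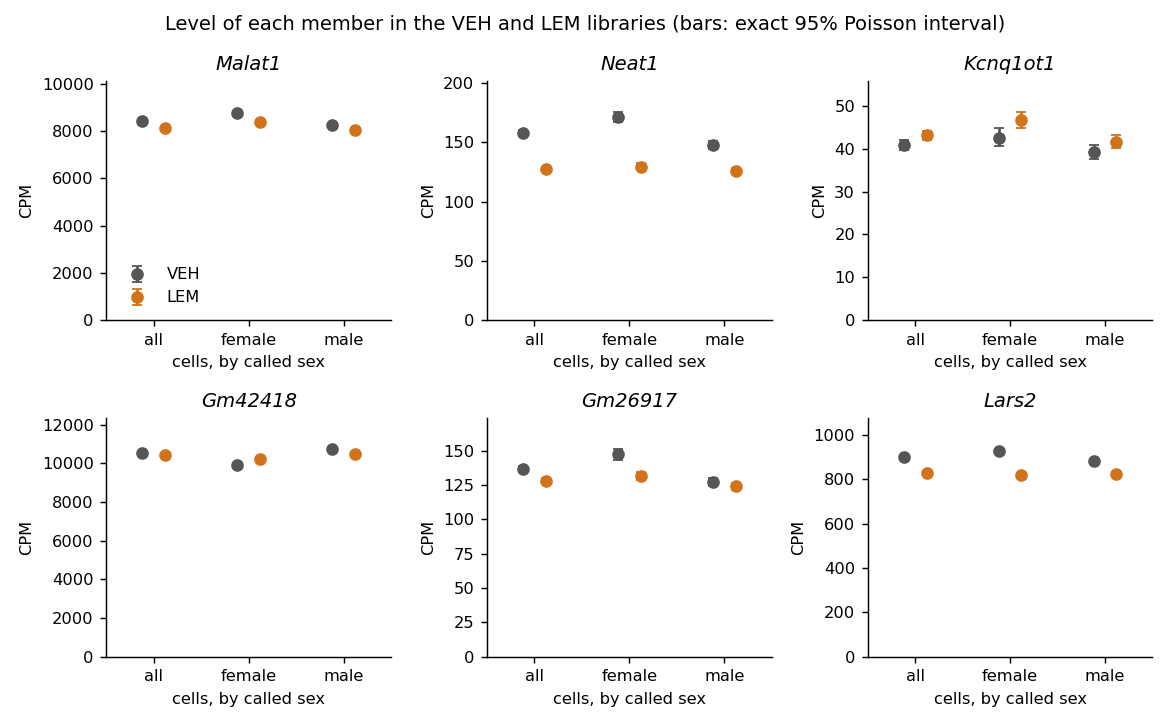
Level of each member in CPM (vertical axes, each from 0) in the VEH (grey) and LEM (orange) libraries for all cells and for cells called female or male, with exact 95% Poisson intervals as bars. As a ratio over all cells, *Neat1* shows the widest gap between the libraries, 158 against 127 CPM, and *Gm42418* the narrowest.

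The transcripts of proteins that work with these RNAs lay closer together in the libraries than *Neat1* did. Only RNA was measured, so each list below stands for the transcripts of its genes. Of 17 genes of paraspeckle proteins 9 were higher and 8 lower in LEM (median log2 ratio 0.03), from *Hnrnpa1* at 0.14 to *Tardbp* at -0.15. Of 26 genes of speckle and splicing proteins 15 were higher and 11 lower (median 0.01), from *Rsrp1* at 0.10 to *Srsf3* at -0.16. Neither list held a gene past the limit of 0.5.

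Other noncoding RNAs gave differing pictures. Of 8 further nuclear lncRNAs tested 4 were higher and 4 lower (median 0.01), from *Xist*, the RNA that silences the X chromosome, at 0.14 to *Snhg14* at -0.29. *Xist* is read mainly in female cells, and cells called female were more frequent in LEM (8409, beside 11223 called male) than in VEH (5686 beside 9025). The part of this in its ratio was not tested. The host genes of small nucleolar RNAs were higher in LEM in 12 of 12 (median 0.20), from 0.10 for *Snhg8* to 0.45 for *Snhg4*. Small nucleolar RNAs guide the chemical modification of ribosomal RNA.

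Of all genes tested, 56.1% were higher in LEM, which is the background for each list in this comparison. Of 20 genes of RNA polymerase I and the nucleolus 19 were higher (median 0.07), among them *Polr1a*, the largest subunit of the polymerase, at 0.33, and *Rrp1b* was lower at -0.17. Of 81 cytosolic ribosomal protein genes 69 were higher (median 0.08). The mitochondrial aminoacyl-tRNA synthetases, the family of *Lars2*, were higher in 11 of 16 (median 0.06), from *Pars2* at 0.23 to *Fars2* at -0.05. The list closest to the rRNA-like members, 7 other genes with rRNA-like or high nuclear reads, had 0 higher and 7 lower in LEM (median -0.06), from *Zc3h7a* at -0.02 to *Jarid2* at -0.21. Of the 6 genes tested in the imprinted domain around *Kcnq1ot1*, 3 were higher and 3 lower in LEM (median 0.02).

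Immediate early and heat shock genes, which respond quickly to stimuli and to stress, were mostly lower in LEM, as *Neat1* was. Of 15, 13 were lower in LEM (median -0.27) and 4 of them past the limit, with *Hspa1b* lowest at -1.11 and *Nr4a1* highest at 0.08. Markers of cell types differed as well, with 11 of 14 markers of disease-associated microglia (DAM, median 0.31) and 14 of 14 interferon markers (median 0.28) higher in LEM. Of 3 choroid plexus markers tested, 2 were past the limit upward and 1 downward. Choroid plexus markers summed to 1370.2 CPM in LEM and 468 CPM in VEH. The part of these genes in the differences of the members was not tested.

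Summed over cells, the share of counts that went to *Malat1*, *Neat1* and *Gm26917* was larger in cells with fewer counts. Over single cells, the Spearman rho of the share with total counts was negative for *Malat1* alone, at -0.18 in VEH and -0.20 in LEM. It was 0.09 and 0.12 for *Neat1*, and 0.06 and 0.05 for *Gm26917*. With thinned counts rho was -0.20 and -0.21 for *Malat1*, -0.04 and -0.02 for *Neat1*, and -0.09 and -0.07 for *Gm26917*. Cells under 4000 counts were set against cells of 8000 or more, and 3 members in VEH and 4 in LEM were past a log2 ratio of 0.5 upward, which 10.1% and 11.3% of all genes were. None was past it downward, where 3.57% and 3.94% of genes were. The medians over the members were 0.47 and 0.58, beside 0.12 and 0.11 over all genes, of which 64.5% and 63.3% were higher. All 8 further nuclear lncRNAs tested were higher in both libraries (medians 0.52 and 0.50). So were 24 and 23 of 26 transcripts of speckle and splicing proteins (medians 0.22 and 0.25). Of the immediate early genes 15 of 15 were higher in VEH and 12 of 15 in LEM. All 81 cytosolic ribosomal protein genes tested were lower in both (medians -0.40 and -0.34).

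*Gm26917* showed the largest difference of the 6. It stood at 341 CPM in VEH cells under 2000 counts, 293 from 2000 to 4000, 165 from 4000 to 6000 and 90.2 from 6000 to 8000, then at 115 and 123 in the ranges up to 12000 and 20000 counts. The same ranges in LEM gave 462, 287, 135, 97.9, 108.5 and 119 CPM. The log2 ratio of shallow over deep cells was 1.36 (1.29 to 1.42) in VEH and 1.47 (1.41 to 1.53) in LEM, where 20 and 14 of all genes tested ranked above it.

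*Malat1* was at 10868 CPM in VEH cells under 2000 counts and 11124 from 2000 to 4000, and declined from there to 7277 CPM from 12000 to 20000. In LEM it was at 10834, 10978 and 6935 CPM in those ranges. Its shallow over deep ratio was 0.56 in VEH and 0.60 in LEM. *Neat1* was at 225 CPM under 2000 counts, 249.6 from 2000 to 4000 and 132 from 6000 to 8000 in VEH, with 214, 189.5 and 117 in LEM. In VEH it was higher again beyond, at 147 CPM from 8000 to 12000 and 160 CPM from 12000 to 20000 counts. It was thus highest under 4000 counts in both libraries, with ratios of 0.69 and 0.65. *Kcnq1ot1* had ratios of 0.37 (0.23 to 0.51) and 0.55 (0.43 to 0.67).

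*Gm42418* and *Lars2* had another course. *Gm42418* was at 15620 CPM in VEH cells under 2000 counts, was at 8829 CPM from 4000 to 6000 and stood at 11598 from 8000 to 12000. In LEM it was at 15879 CPM under 2000 counts, 8845 from 2000 to 4000 and 10988 from 8000 to 12000. Both libraries thus had a high level in the shallowest cells and a low one in the next ranges. *Lars2* was at 1213 CPM under 2000 counts, 780.5 from 4000 to 6000 and 981 from 8000 to 12000 in VEH. In LEM it was at 1424 CPM under 2000 counts, 700.1 from 2000 to 4000 and 879.5 from 8000 to 12000. *Lars2* therefore had the course of *Gm42418*, and the ratio of shallow over deep cells was small: for *Gm42418* -0.0029 in VEH and -0.17 in LEM, and for *Lars2* -0.02 and -0.11.

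**Figure D2:**
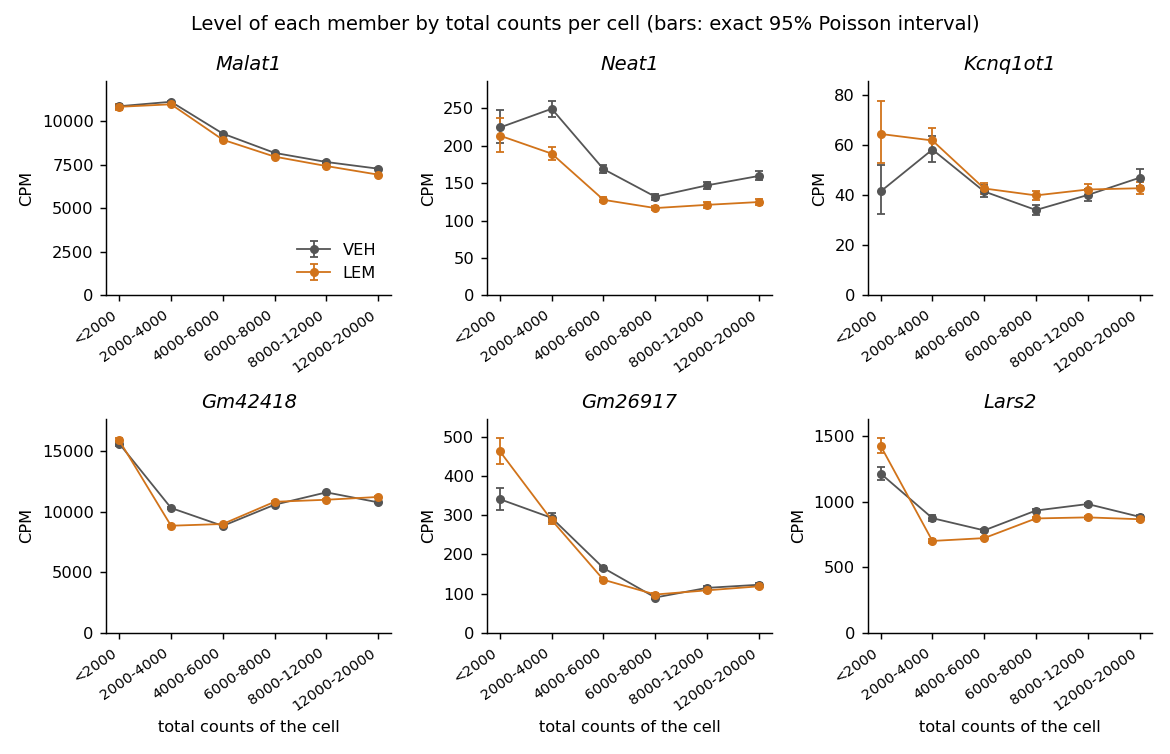
Level of each member in CPM (vertical axes) in 6 ranges of total counts per cell (horizontal axes) in VEH (grey) and LEM (orange), with exact 95% Poisson intervals. *Malat1* declines from 2000 counts on, *Gm26917* is highest in cells under 4000 counts, and *Gm42418* and *Lars2* are highest in cells under 2000 counts and lower just above it.

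Markers of cell types moved with depth too. All 14 DAM markers were lower in shallow cells (median -0.91 in VEH and -0.93 in LEM), as were 9 of 9 proliferation markers in VEH and 8 of 9 in LEM (medians -2.33 and -2.27), and their part in the members' levels was not tested.

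The make-up of the ranges changed with depth. Cells were clustered on 2000 variable genes from which the 6 members had been left out, giving 16 clusters of which 11 stayed unnamed. Cluster 6 held 60.5% of the VEH and 61.5% of the LEM cells under 2000 counts, and cluster 10 held 20.2% and 23.2%. From 2000 to 4000 counts cluster 6 held 8.73% and 10.1%, cluster 10 held 13.2% and 13.5%, and cluster 11 held 11.2% and 12.2%. Without clusters 6, 10, 11 and 13, a choice made after the data were seen, the median over the members of shallow over deep cells was -0.01 in VEH and -0.05 in LEM, in place of 0.47 and 0.58. *Gm26917* then stood at 0.04 and 0.18 in place of 1.36 and 1.47, *Neat1* at 0.19 and -0.10 in place of 0.69 and 0.65, and *Kcnq1ot1* at -0.12 and 0.0069. *Malat1* kept a higher share in shallow cells, at 0.33 and 0.38, while *Gm42418* stood at -0.26 and -0.51 and *Lars2* at -0.06 and -0.46. Outside these clusters *Malat1* thus had the largest of the 6 differences toward shallow cells in both libraries.

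Over all cells of a library the median over the members varied less with the mt- share than with total counts. This was not so for *Gm42418* and *Lars2* in VEH, which by depth were at -0.0029 and -0.02 and by mt- share at -0.08 and 0.07, and the course with mt- share differed by depth. Cells above the upper quartile of mt- share (0.87% or more in VEH and 0.91% or more in LEM) were set against those below the lower quartile (0.41% or less and 0.43% or less). The median over the members was -0.14 in both libraries, close to that of all genes, -0.12 and -0.14. None was past the limit upward, where 2.39% of genes in VEH and 2.34% in LEM were. Downward it was 1 member in VEH and 0 in LEM, beside 2.03% and 1.74% of genes.

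That member was *Gm26917*, at 199 CPM in the low and 124 CPM in the high cells of VEH (-0.68, -0.74 to -0.62) and at 170.4 and 127 CPM in LEM (-0.43). *Malat1* was lower in the high cells at -0.20 and -0.26, and *Kcnq1ot1* at -0.22 and -0.34. *Neat1* was at -0.0039 and 0.10, *Gm42418* at -0.08 and -0.03, and *Lars2* at 0.07 and 0.0064. The direction did not hold to the end of the scale. Above 2% mt- counts, where 171 VEH and 266 LEM cells lay at a median of 2778 and 3020.0 counts, *Gm26917* was at 351 and 271 CPM, against 113 and 109.6 CPM between 0.5% and 1%. *Neat1* was at 335.5 and 184 CPM there, against 153 and 122, and *Gm42418* at 13767 and 13811 CPM. Setting cells of 1.5% or more against those under 0.5% turned the difference of *Gm26917* to 0.25 in VEH and 0.33 in LEM, and that of *Kcnq1ot1* to 0.05 and 0.09. Median counts per cell rose with the mt- share up to 1.5% and were lower beyond, at 5287 counts under 0.5%, 6506 from 1% to 1.5% and 4977 from 1.5% to 2% in VEH and at 5241.5, 6656.5 and 5249 in LEM, with a Spearman rho of 0.18 in VEH and 0.20 in LEM over all cells.

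In cells under 4000 counts *Malat1* was higher with a higher mt- share, from 10288 CPM under 0.5% to 18791 CPM at 2% or more in VEH and from 9940 to 16420 CPM in LEM. In cells of 8000 counts or more it was lower, from 8284 CPM under 0.5% to 4910 CPM between 1.5% and 2% in VEH and from 7861 to 4826 CPM in LEM. The lower level of *Malat1* in the high cells thus held for deep cells and was turned in shallow ones, in both libraries. *Neat1* under 4000 counts was at 195 CPM below 0.5% and 468 CPM at 2% or more in VEH, and at 169 and 267 CPM in LEM.

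Markers of cell types and other lists moved with the mt- share, where 26.3% of all genes in VEH and 23.9% in LEM were higher in the high cells. All 14 DAM markers were higher in the high cells (median 1.104 in VEH and 0.94 in LEM), as were 7 of 7 BAM markers in VEH and 6 of 7 in LEM. Choroid plexus markers summed to 1446 CPM in the high and 68.7 CPM in the low cells of VEH, and to 4390 and 193 CPM in LEM. Of 81 cytosolic ribosomal protein genes 80 were higher in the high cells of both libraries (medians 0.47 and 0.46). All 8 further nuclear lncRNAs tested were lower there (medians -0.30 and -0.34). Within the unnamed clusters alone, which leave the named classes out, *Gm26917* stood at -0.68 in VEH and -0.41 in LEM and *Malat1* at -0.10 and -0.15.

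**Figure D3:**
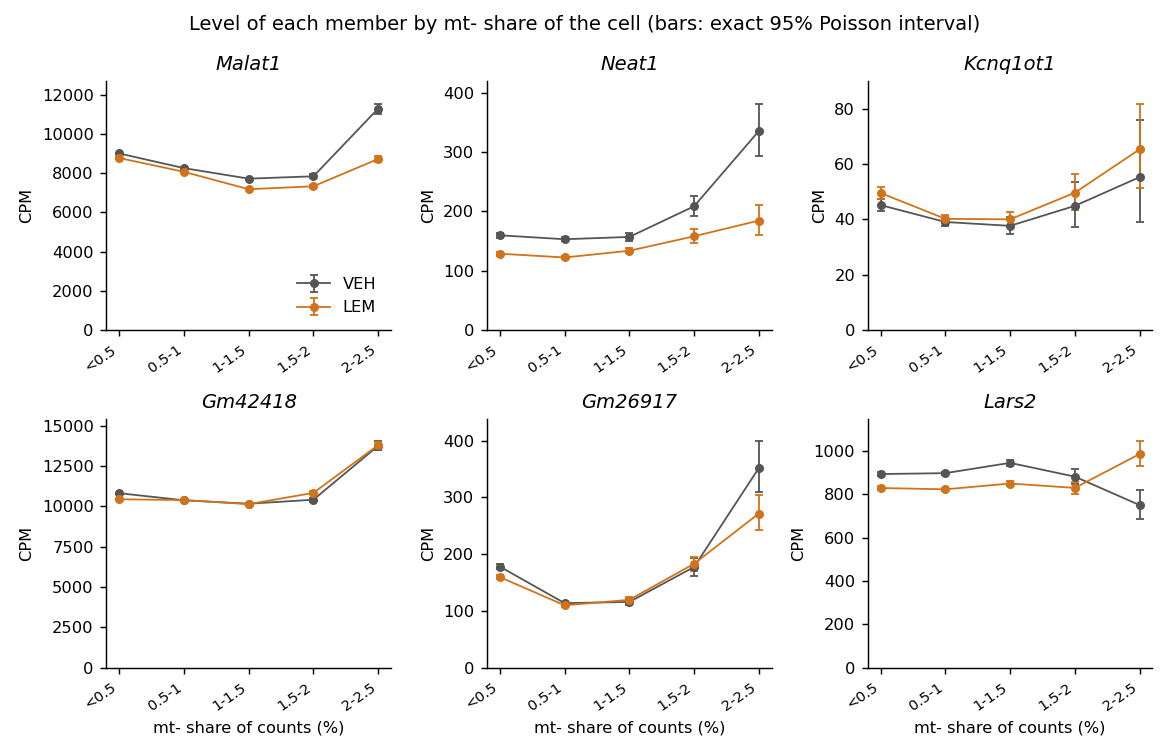
Level of each member in CPM (vertical axes) in 5 ranges of the mt- share of counts (horizontal axes, percent) in VEH (grey) and LEM (orange), with exact 95% Poisson intervals. *Gm26917* and *Neat1* are highest above 2%, where cells are few and shallow, and *Malat1* dips between 1% and 2%.

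The widest differences of the members were between clusters, and they split the 6 into opposed sets. Of the VEH cells 1562 (8.50%), and of the LEM cells 1654 (6.78%), were in clusters 10, 11 and 13, whose median counts were 2216, 3904 and 9831. In cluster 13, 53.5% of cells lay among the cells with the highest doublet scores of each library. Because cells were clustered on genes that vary with the members, the differences between clusters are described and not tested.

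Over the other 7 unnamed clusters (0, 1, 2, 3, 4, 7 and 8), clusters 10, 11 and 13 had 4 members past the limit upward and 1 downward, where 34.2% and 29.3% of all genes were. *Gm26917* was at 893 CPM against 86.0 CPM, 10.4-fold higher, and 2 of the 11910 genes ranked above it. Clusters 10, 11 and 13 were grouped after the clustering was seen, and *Gm26917* was among the leading genes of each. Its rank here, and the share of its counts that these clusters held, therefore follow in part from that choice. *Neat1* was at 452 against 120.1 CPM, a log2 ratio of 1.91. *Kcnq1ot1* was at 133 against 37.1 CPM (1.85) and *Malat1* at 15934 against 8351 CPM (0.93). The rRNA-like *Gm42418* was on the other side, at 8163 against 10429.5 CPM (-0.35), as was *Lars2* at 478 against 858 CPM (-0.85). *Gm26917* and *Gm42418*, genomic neighbours, thus went in opposite directions.

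Summed over the 3 clusters, the directions of all 6 were alike in both libraries and both sexes. In cluster 11 *Gm26917* stood at 1506 CPM in VEH and 1451 CPM in LEM, in cluster 10 at 506 and 440.3 CPM, and in cluster 13 at 463 and 402 CPM. Over the other 7 clusters it had a log2 ratio of 3.82 (female VEH), 3.66 (male VEH), 3.29 (female LEM) and 3.25 (male LEM). *Gm42418* was the exception to the split by cluster: in cluster 10 it stood at 12438 CPM in VEH, above the 10427 CPM of the other 7, and at 10408 CPM in LEM, next to 10431. In clusters 11 and 13 it was lower in both libraries, from 6543 to 7490.0 CPM. The 3 clusters held 40.3% of the *Gm26917* counts of VEH and 26.6% of those of LEM, with 5.62% and 4.23% of all counts. They held 19.2% and 12.2% of the *Neat1* counts, 18.6% and 12.8% of *Kcnq1ot1*, 10.97% and 8.02% of *Malat1*, but 4.41% and 3.28% of *Gm42418* and 2.73% and 2.62% of *Lars2*.

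Cluster 6, with 1082 VEH and 1164 LEM cells and a median of 1529.5 counts, was the reverse. It had 2 members past the limit upward, where 5.31% of genes were, and 3 downward, where 34.8% were. By library 2 were past it upward in both, and downward 2 in VEH and 3 in LEM, with *Neat1* short of it in VEH. *Gm42418* was at 19264 against 10429.5 CPM in the same 7 clusters, a log2 ratio of 0.89, and *Lars2* at 1720 against 858 CPM (1.00). *Malat1* was at 4408 against 8351 CPM (-0.92), *Neat1* at 79.1 against 120.1 CPM (-0.60) and *Kcnq1ot1* at 16.1 against 37.1 CPM (-1.20). *Gm26917* was at 87.2 against 86.0 CPM (0.02, -0.13 to 0.16), so it followed neither set there. By library its ratio was -0.09 in VEH and 0.10 in LEM.

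Over clusters 0, 1, 2, 3, 4, 7 and 8 the members varied little. The highest level of a member was 1.28 to 1.65 times its lowest in VEH and 1.32 to 1.68 times in LEM, while over all 16 clusters *Gm26917* spanned 31.2-fold in VEH and 28.0-fold in LEM.

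**Figure D4:**
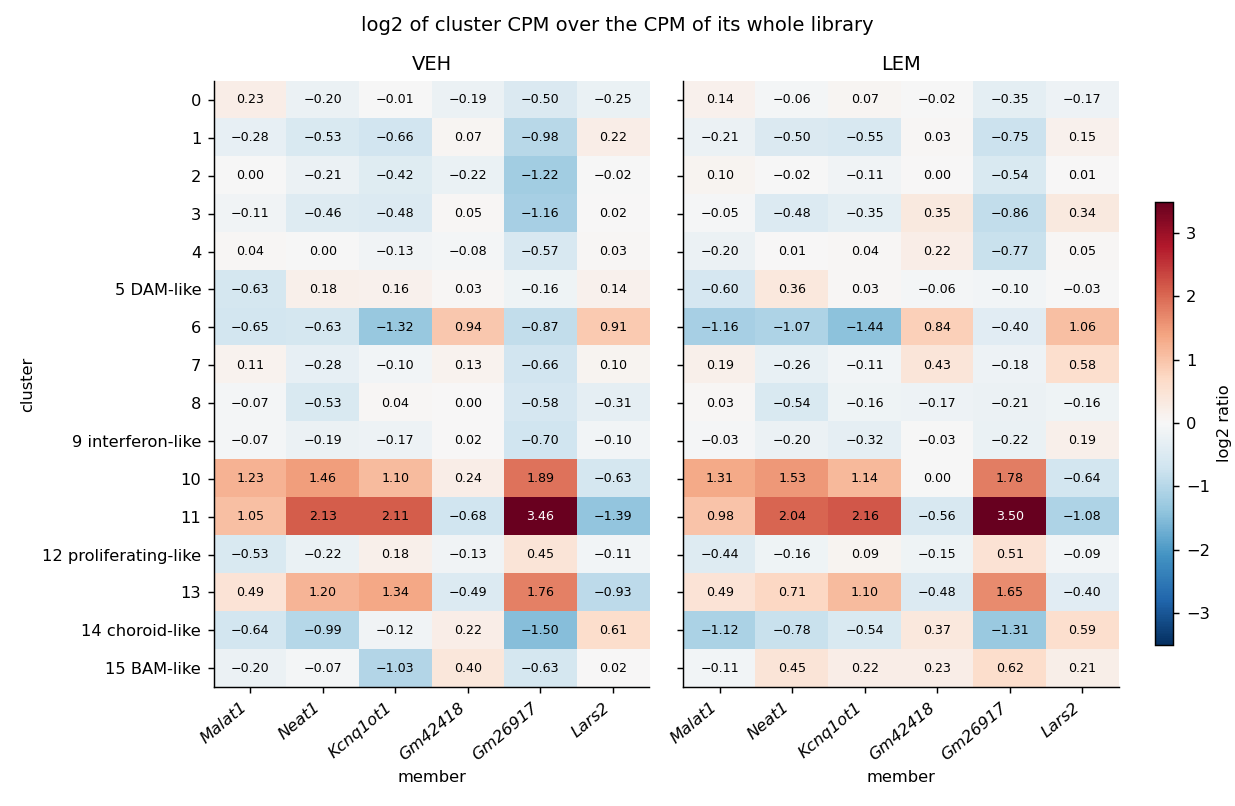
log2 ratio of the CPM of each cluster (rows) over the CPM of its whole library, for the 6 members (columns) in VEH (left) and LEM (right), with red for higher, blue for lower and the ratio printed in each cell. Clusters 10, 11 and 13 are higher in *Malat1*, *Neat1*, *Kcnq1ot1* and *Gm26917* and lower in *Lars2*, and cluster 6 is higher in *Gm42418* and *Lars2* and lower in the 3 nuclear lncRNAs, in both libraries.

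The libraries differed within these clusters as well. In cluster 6 *Malat1* was at 5388 CPM in VEH and 3623 CPM in LEM (-0.57) and *Neat1* at 102 and 60.4 CPM (-0.76). These 2 members were past the limit downward, where 22.3% of genes were, and 0 upward, where 8.46% were. In clusters 10, 11 and 13 as a group *Neat1* was at 540.2 CPM in VEH and 368 CPM in LEM (-0.55, -0.63 to -0.48), the 1 member past the limit, with 4.55% of genes past it downward and 7.84% upward. *Gm26917* was at 980 and 809 CPM (-0.28), whereas *Lars2* was at 438 and 515 CPM (0.23). Without clusters 6, 10, 11 and 13, 0 members were past the limit, with 1.64% of genes past it upward and 1.21% downward. *Gm26917* then stood at 0.18 and not -0.09, a turned direction, while *Neat1* stayed lower in LEM at -0.21. *Kcnq1ot1* went from 0.08 to 0.15, and *Malat1* from -0.05 to -0.02. Without the cells of highest doublet score *Kcnq1ot1* stood at 0.12.

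The leading genes of clusters 10, 11 and 13 other than *Gm26917* were mostly very long protein-coding genes, such as *Plcl1*, *Maml3*, *Plxna4*, *Arid1b*, *Fhit* and *Nav2*, which span 348, 419, 444, 353, 1612 and 701 kb. Gene length in GENCODE M21, compared after these genes had been seen, ran along the ratio of the 3 clusters over the other 7. The median log2 ratio was -0.81 for 2992 genes under 10 kb, -0.18 for 3880 from 10 to 30 kb, 0.63 for 3414 from 30 to 100 kb, 1.33 for 1205 from 100 to 300 kb and 1.66 for 278 above. Length had the opposite course in cluster 6, with medians from -0.05 under 10 kb to -0.80 above 300 kb.

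In clusters 10, 11 and 13, 5 of the 6 members lay outside the quartiles of their length class. By the definition of quartiles, as many genes of a class lie outside them as inside. *Gm26917* spans 3.33 kb and *Malat1* 6.98 kb, and both were far above the median of short genes there. *Neat1*, of 20.8 kb, was at 1.91 where genes of 10 to 30 kb had an upper quartile of 0.28. *Kcnq1ot1*, of 93.1 kb, was at 1.85 where genes of 30 to 100 kb had one of 0.99. *Lars2* spans 95.7 kb and was at -0.85 where genes of 30 to 100 kb had quartiles of 0.17 and 0.99. In cluster 6 it was at 1.00 where that class had a median of -0.45. *Gm42418* in clusters 10, 11 and 13 (-0.35) lay within the quartiles of genes under 10 kb, -1.30 and -0.27, as did *Gm26917* in cluster 6 (0.02), between -0.40 and 0.27. Between LEM and VEH the median by length ran only from 0.03 under 10 kb to -0.06 above 300 kb. For shallow over deep cells it ran from -0.04 under 10 kb to 0.56 above 300 kb in VEH, and from -0.04 to 0.60 in LEM.

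**Figure D5:**
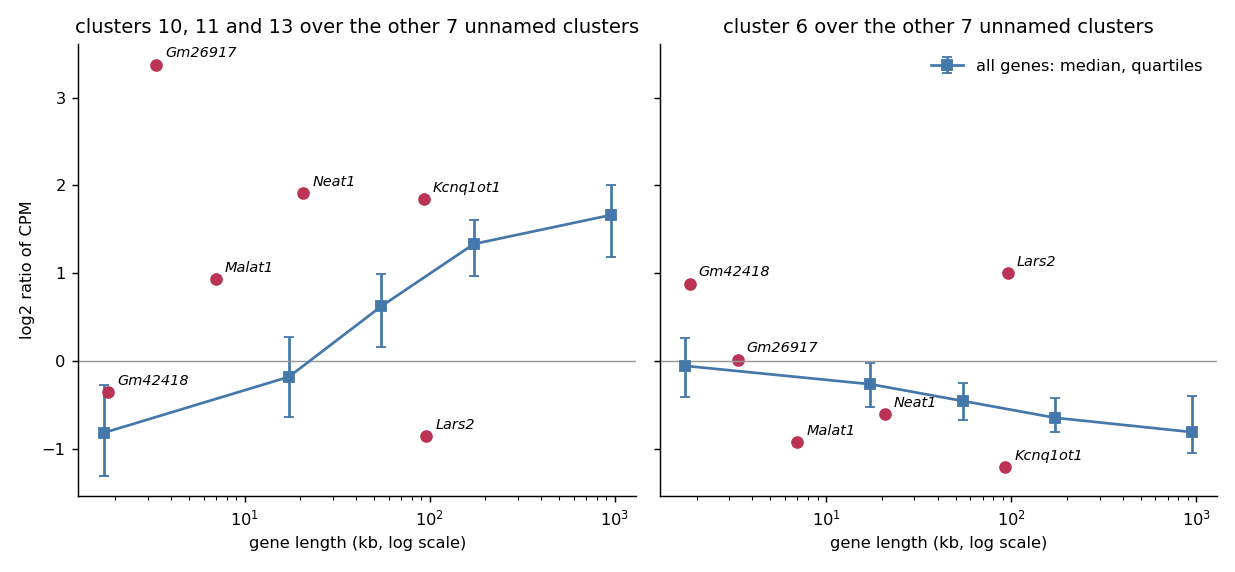
log2 ratio of CPM over the other 7 unnamed clusters (vertical axes) by gene length in kb (horizontal axes, log scale), for clusters 10, 11 and 13 (left) and cluster 6 (right), with blue squares and bars for the median and quartiles of all genes in 5 length classes and red points for the members. *Lars2* lies below the genes of its length on the left and above them on the right, and *Gm26917* lies above the short genes on the left.

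Counts of higher and lower genes in these clusters stand beside a background of 53.0% of all genes higher (median 0.08) in clusters 10, 11 and 13 and 22.8% higher (median -0.33) in cluster 6. All 8 further nuclear lncRNAs tested were higher in clusters 10, 11 and 13 (median 1.30, 7 past the limit), from *Snhg14* at 0.38 to *Pvt1* at 2.18, and all 8 were lower in cluster 6 (median -0.81). Transcripts of speckle and splicing proteins were higher in 20 of 26 in clusters 10, 11 and 13 (median 0.30), with *Ddx17*, an RNA helicase, highest at 1.06. They were lower in 26 of 26 in cluster 6 (median -0.50). Transcripts of paraspeckle proteins were higher in 12 of 17 in clusters 10, 11 and 13 (median 0.43), with *Pspc1*, of a core paraspeckle protein, at 1.28 and *Hnrnpk* at -0.80.

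Cytosolic ribosomal protein genes ran the other way, with 0 of 81 higher in clusters 10, 11 and 13 (median -1.92) and 80 of 81 higher in cluster 6 (median 0.85). Their summed level was 13707 CPM in clusters 10, 11 and 13, 50183 CPM in the 7 clusters and 91586 CPM in cluster 6. The host genes of small nucleolar RNAs were lower in 11 of 12 in clusters 10, 11 and 13 (median -0.48). The mt- genes were at 7300 CPM in clusters 10, 11 and 13, 6789 CPM in the 7 clusters and 7264 CPM in cluster 6, as summed levels. By cluster the median mt- share of a cell was 1.02% in cluster 10, 0.52% in cluster 11, 0.57% in cluster 13 and 0.47% in cluster 6.

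The nearest relatives of *Lars2* by function lay near all genes in cluster 6. The other mitochondrial aminoacyl-tRNA synthetases were higher in 12 of 16 in clusters 10, 11 and 13 (median 0.26), up to *Fars2* at 2.17, and lower in 15 of 16 in cluster 6 (median -0.35, against -0.33 over all genes). Cytosolic synthetases were higher in 6 of 19 in clusters 10, 11 and 13 (median -0.10), with *Lars*, the cytosolic leucyl-tRNA synthetase, at 0.57, and higher in 3 of 19 in cluster 6 (median -0.16). In the imprinted domain around *Kcnq1ot1*, 0 of 6 genes were higher in clusters 10, 11 and 13 (median -1.16), from *Nap1l4* at -0.08 to *Cd81* at -1.57, where *Kcnq1ot1* itself was at 1.85.

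A list of 7 genes with rRNA-like or high nuclear reads went with *Gm42418* and *Lars2* in part. In clusters 10, 11 and 13 it had 5 lower and 2 higher genes (median -0.67), with *Filip1l* at -1.51 and *AY036118* at -1.497 among the lower and *Camk1d* at 1.29 and *Jarid2* at 0.48 higher. In cluster 6 it had 6 higher genes (median 0.32), among them *Cmss1* at 0.34 and *Cdk8* at 0.32. *AY036118*, which overlaps *Gm42418* on the opposite strand, was at 0.07 there, against 0.89 for *Gm42418*.

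Markers of cell types moved with the clusters too. The 10 homeostatic markers were lower in 9 in clusters 10, 11 and 13 (median -0.99), their summed level being 17510 CPM against 34327 CPM in the 7 clusters, and 26622 CPM in cluster 6. All 14 DAM markers tested were higher in cluster 6 (median 2.11, summed 7522 against 3922 CPM), and 5 of 7 BAM markers were (summed 644 against 82.6 CPM). Neuronal markers, none of which was found in 1% of the cells of either library, were near the floor. They summed to 5.52 CPM in cluster 6 and 2.03 CPM in clusters 10, 11 and 13, against 0.60 CPM. The part of these in the members' levels was not tested.

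Over the 32 sums of 16 clusters and 2 libraries, which share libraries and whose sizes differ widely, the members' levels, as log2(CPM + 1), formed the same sets. *Gm42418* and *Lars2* had a Pearson r of 0.85. *Malat1* and *Neat1* had 0.82, and *Neat1* and *Kcnq1ot1* 0.88. *Gm26917* had r of 0.90 with *Neat1*, 0.90 with *Kcnq1ot1* and 0.73 with *Malat1*, but -0.59 with *Gm42418* and -0.82 with *Lars2*. Over these sums the name rRNA-like thus joined 2 transcripts that went together and 1 that went with the nuclear lncRNAs. That did not hold in each cluster. In the shallow cluster where *Gm42418* and *Lars2* were highest, *Gm26917* followed neither set. In the proliferating-like cluster it was higher than in the unnamed clusters, while *Malat1* was lower. How far these r values rest on the clusters where the members differed most was not tested.

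Over single cells most of these relations were weak. Thinned to 2000 counts, *Gm42418* and *Lars2* had a Spearman rho of 0.25 in both libraries over 17069 VEH and 23177 LEM cells, and *Malat1* and *Gm26917* had 0.17 and 0.12. *Gm42418* and *Gm26917* had 0.04 and 0.06.

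The ratio of *Lars2* to *Gm42418* varied less than that of *Gm26917* to *Gm42418*. It was 8.58 counts of *Lars2* per 100 of *Gm42418* in VEH and 7.98 in LEM, and over the 32 sums it ran from 4.70 to 11.2, a 2.39-fold span. By total counts per cell it stayed between 7.77 and 8.84 in VEH and between 7.71 and 8.97 in LEM. By mt- share it ran from 5.45 at 2% or more to 9.30 from 1% to 1.5% in VEH, and from 7.14 to 8.38 in LEM. *Gm26917* per 100 of *Gm42418* was 1.30 in VEH and 1.23 in LEM, and spanned 62.1-fold over the sums, from 0.37 to 23.0.

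The genes most like each member over those 32 sums, among 7399 detected in at least 10% of cells, differed by set. Nearest to *Lars2* were *Cmss1* (r of 0.92) and *Cdk8* (0.90), followed by *Ubxn6*, *Grcc10* and *Anapc13*, and nearest to *Gm42418* were the same *Cdk8* (0.80) and *Cmss1* (0.79), with *Gm19951*, *Gpr137* and *Ubxn6*. *Gm26917* was most like *Abr* (0.96), *Spred2*, *Ubr4*, *Ttc28* and *Arid1b*, and *Kcnq1ot1* most like *Ralgapa1* (0.96), *Zfp407*, *Btbd9*, *Srpk2* and *Pign*. *Malat1* was most like *Adap2* (0.98), *Rbm5*, an RNA-binding splicing regulator, *Txndc11*, *Clk1*, a kinase of splicing factors, and *Dennd4a*. *Neat1* was most like *Mrtfa* (0.95), *Fbxw11*, *Tec*, *Rai1* and *Atf3*, a stress-induced transcription factor that belongs to the immediate early list and was at 1.95 in clusters 10, 11 and 13. It was the highest of that list there, of which 7 of 15 were higher and 8 lower (median -0.06), down to *Zfp36* at -0.77. In cluster 6, where *Neat1* was at -0.60, 0 of the 15 were higher (median -0.75, 13 of them past the limit downward).

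Named cell classes were set against all 11 unnamed clusters. The DAM-like cluster of 2796 cells had 0 members past the limit upward and 1 downward (7.27% and 16.4% of genes). That was *Malat1*, at 5453 CPM in VEH and 5353 CPM in LEM, a log2 ratio of -0.69 over the unnamed clusters at 8716 CPM. *Neat1* was higher there at 179 and 163 CPM, a ratio of 0.29 (0.25 to 0.34). By library this was 0.18 (0.11 to 0.25) in VEH and 0.39 (0.33 to 0.45) in LEM. The DAM-like cells thus parted *Malat1* from *Neat1*, which clusters 6, 10, 11 and 13 moved together.

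In the proliferating-like cluster of 866 cells *Malat1* was again the member past the limit downward (-0.56), with 7.20% of genes, and none was past it upward, with 16.8%. *Gm26917* was at 186 CPM in VEH and 183 CPM in LEM (0.47) there, and by library at 0.42 in VEH and, past the limit, 0.51 in LEM. The interferon-like cluster of 1566 cells had no member past the limit (3.78% of genes upward and 3.47% downward), with *Gm26917* lowest at -0.39. By library *Gm26917* stood there at -0.73 in VEH, past the limit, and at -0.22 in LEM. The BAM-like cluster had none past it (11.1% and 19.1%), with its ratios from -0.22 for *Malat1* to 0.29 for *Gm42418*. The libraries parted there: *Kcnq1ot1* (-1.01) and *Gm26917* (-0.66) were past the limit downward in VEH, and *Gm26917* (0.62) upward in LEM. Its 69 VEH and 113 LEM cells gave *Gm26917* levels of 88.3 and 197 CPM, and *Kcnq1ot1* levels of 20.1 and 50.4 CPM.

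The choroid plexus epithelium-like cluster (50 VEH and 149 LEM cells), of a cell type other than microglia, had 1 member past the limit upward and 3 downward (12.2% and 45.4% of genes). By library 3 were past it downward in VEH and 4 in LEM. *Lars2* was at 1381 CPM in VEH and 1254 CPM in LEM (0.59). *Malat1* was at 5410 and 3737 CPM (-1.06), *Neat1* at 79.7 and 74.0 CPM (-0.88), and *Gm26917* at 48.3 and 51.9 CPM (-1.39). All 6 transcripts were counted in every class, and no class known to lack one was at hand to read a level of free RNA from.

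At the ends of the distribution the members marked different cells. *Gm42418* took over 5% of counts in 325 VEH cells (1.77%, 1.58 to 1.97) and 463 LEM cells (1.90%, 1.73 to 2.08), and up to 64.0% of the counts of 1 VEH cell and 41.2% of 1 LEM cell. In those cells *Lars2* was at 3183 CPM in VEH and 2935 CPM in LEM, against 856 and 788 CPM in the rest. Their median counts were 7014 and 6673, against 5952 and 6020.0 in the rest, and 11.4% and 13.4% of them were in the shallow cluster 6, which held 5.89% and 4.77% of all cells. Of the 37 VEH and 44 LEM cells with over 10% of counts on *Gm42418*, 29.7% and 31.8% were in cluster 6.

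Cells without any *Malat1* count numbered 113 in VEH (0.61%) and 192 in LEM (0.79%). Of them 88.5% and 66.7% were in cluster 6. They had median counts of 2400.0 and 4093 and a median mt- share of 1.04% and 1.42%, against 0.62% and 0.65% in the rest. *Gm42418* was at 19149 and 19854 CPM in them and *Neat1* at 9.90 and 5.12 CPM, against 10481 and 10351 CPM of *Gm42418* and 158 and 128 CPM of *Neat1* in the rest. Cells chosen for the absence of *Malat1* thus also had little *Neat1*, and more *Gm42418*.

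Cells with over 2% of counts on *Malat1* numbered 646 in VEH and 633 in LEM, and 78.8% and 74.6% of them were in clusters 10, 11 and 13. Cells with over 0.1% on *Gm26917* numbered 608 and 635, of which 86.8% and 77.0% were in these clusters. Both kinds had *Lars2* below the rest, at 454 and 534 CPM in the former and 633 and 686 CPM in the latter.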

How the data were processed

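Sorted microglia of 1 VEH and 1 LEM library were measured by droplet single-cell RNA-seq with a 5′ kit. The authors deposited whole-number UMI counts per gene and cell, made with Cell Ranger 8.0.0 on the mm10 transcriptome (per the labels and the study's methods), with SoupX named for free RNA. Whether that correction is in the counts cannot be told from them. After the authors' filters cells held at least 501 genes, up to 19999 counts and at most 2.50% mt- counts. Cell Ranger of this version counts intronic reads by default, and such reads can weigh on long genes.

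Members and gene lists were chosen with earlier results of these data known. From the counts, CPM per group of cells and log2 ratios with exact conditional Poisson intervals were computed, with no test, as there is 1 library per group. The background was the 11910 genes found in 1% or more of the cells of VEH or LEM. Clustering used Seurat 5.3.0 under R 4.3.3 with 2000 variable genes less the members (5 of the 6 were among them), 20 components, 30 neighbours and a resolution of 0.9. A cluster was named from at least 3 markers among its 20 leading genes. Scrublet (scanpy 1.11.5) set a threshold that marked 0 VEH and 3113 LEM cells, so the planned exclusion of called doublets was replaced, after seeing the data, by leaving out the tenth of cells with the highest scores in each library (1837 and 2439). Named genes were the members, in each list the gene of highest and lowest ratio or any gene of lists under 20, and per member the 5 genes of highest Pearson r. Genes of clusters 10, 11 and 13 named beside gene length were chosen after their values were seen, and these clusters were grouped after the clustering was seen. Of the 11910 genes, 98.8% had a length in GENCODE M21. Python 3.11.15, numpy 2.4.6, scipy 1.17.1 and pandas 2.3.3 were used. On simulated Poisson counts, 95.2% of 11910 intervals held the true ratio of LEM over VEH. The simulation left out variation between cells and between mice, so it checks the computation of the interval and not its coverage in these data.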

Additional observations from a re-analysis of the deposited data

Results flagged for a closer look

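*Gm42418*, the transcript that RefSeq ties to an 18S ribosomal RNA pseudogene, was higher in LEM than in VEH in cells called female, with a log2 ratio of 0.046 (0.040 to 0.052), and lower in cells called male, at -0.035 (-0.040 to -0.031). Both intervals lay on their own side of 0. The difference between the sexes was not tested, since cells of 1 pool are not replicates. Both ratios are small beside the 0.5 used as the limit. They are also small beside the spread of this ratio over the 16 clusters, from -0.26 to 0.29, with 7 clusters higher in LEM and 9 lower. In VEH the level was 9899 CPM in cells called female and 10718 CPM in cells called male, and in LEM 10221 and 10458 CPM.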

How the results depend on the processing

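No paired analysis was possible because each group is 1 library. The median of LEM over VEH stayed below 0 under all 12 alternatives. In 9 of them it stayed within a range averaged from the counting intervals of the members of middle rank. That range is not an interval of the median itself. The median was -0.11 in cells called female, -0.036 in cells called male and -0.019 without clusters 6, 10, 11 and 13. Of 72 values of single members, 69 kept their sign, the exceptions being *Gm42418* in cells called female and with both sexes weighted equally (0.05 and 0.0043) and *Gm26917* without those clusters (0.18). The median of shallow over deep cells in VEH went to -0.014, a turned sign, without these clusters. In LEM it went to 0.47 by quartiles of counts, 0.37 by genes detected, 0.51 in unnamed clusters and, again with a turned sign, -0.046 without the 4 clusters. There *Neat1* in LEM also turned, to -0.10. The median of high over low mt- share in VEH was 0.044 for 1.5% or more against under 0.5%, where *Gm26917* turned to 0.25 (0.33 in LEM), -0.16 in cells of 4000 to 8000 counts, -0.072 with shares taken without the members, -0.10 in unnamed clusters and -0.10 without the 4 clusters. In LEM it was 0.11, -0.21, -0.083, -0.10 and -0.12 under the same 5. Of single members, 55 of 72 values by mt- share and 78 of 84 by depth kept their sign. Of the 17 that turned by mt- share, 8 did so for 1.5% or more against under 0.5%, and 13 were of *Neat1*, *Gm42418* and *Lars2*, whose ratios lay between -0.08 and 0.10. The cause of these shifts was not tested, beyond the cells left out. By cell class, the proliferating-like median went from -0.12 to -0.047 with the members kept among the variable genes, and the other 14 values stayed within the range averaged in the same way. Leaving out the 4 clusters or the cells of highest doublet score, and weighting both sexes equally, were chosen after seeing the data. Leaving out cells that Scrublet itself calls doublets was not run, as it called 0 in VEH. *Kcnq1ot1*, at 0 counts in most cells, is limited by depth, and in the class and mt- ranges of few cells its intervals are wide.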
